A study of Rattus norvegicus with 13 samples.

Results

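The nuclear genes for respiratory complexes II to V and for cytochrome c were followed in bulk RNA of rat hearts. Members were taken by name: Sdha to Sdhd for complex II, names starting Uqcr and Cyc1 for complex III, names starting Cycs for cytochrome c, names starting Cox4 to Cox8 for complex IV and names starting Atp5 for complex V, without pseudogene names ending in -ps and a number. This gave 57 members of 25600 names at 2 months and 68 of 38600 names at 6 and at 8 months. The rule uses names and no measured value, though earlier results of these data were known when the members were chosen.

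These complexes sit in the inner mitochondrial membrane. Complex II (succinate dehydrogenase) passes electrons from succinate to ubiquinone, complex III (the cytochrome bc1 complex) hands them on to the small carrier cytochrome c, and complex IV (cytochrome c oxidase) gives them to oxygen. The proton gradient that complexes I, III and IV build drives complex V, the ATP synthase, and heart muscle, which beats without rest, is among the tissues richest in all of them.

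Groups were sonogenetic hearts, called ST as in the library names, and control hearts of genotype WT with no treatment. ST hearts carried MscL-G22S, a mutant of a bacterial mechanosensitive channel, with the red fluorescent protein mCherry, given by the AAV2/9 virus under the cTnT promoter (cardiac troponin T), which drives expression in heart muscle cells rather than the other cells of the heart. There were 2 ST and 2 WT hearts at 2 months, 3 ST and 3 WT hearts at 6 months, and 3 ST hearts at 8 months, for which no WT hearts of the same time were analysed here. The labels call the hearts biological replicates and do not say whether the months are age or time since the virus, nor whether ultrasound was applied. The transgene row was above 0 in all 8 ST libraries, at 11.03 to 209 counts per M library counts, and had 0 counts in all 5 WT libraries.

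Library totals ran from 4.70 to 11.3 M counts, and the 3 libraries of 8 months were the shallowest at 4.70 to 5.57 M. All 12 heart muscle markers were measured at 6 and 8 months, with summed levels of 122830 to 139410 CPM. CPM here means counts per M counts, scaled between libraries by the TMM factors of edgeR, and it is not divided by transcript length, so that levels are compared between libraries and not between genes. WT replicate 1 of 6 months stood apart: its members summed to 33480 CPM, against 38532 and 38509 CPM in the other 2 WT hearts. Its ribosomal protein genes, which have short messenger RNAs, were low as well, at 15475 CPM against 18555 and 19563 CPM. Counts and medians that rest on these WT hearts, and the members called at 6 months, are given with and without that library. The 2-month table was counted on another set of names, so its levels are not set against the later ones: Uqcrb, Uqcr11, Atp5f1e, Atp5me and Atp5mk were near 0 in all 4 libraries there (at most 1.00 CPM), while the copy Uqcrbl1 held 200 to 224 CPM. Cox8a and Cox8b were not analysed at 2 months.

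The stretch just upstream of the start site is shown for a few members. Respiratory genes are known to be bound by NRF-1, by NRF-2 (GABP), by the estrogen-related receptors (ERR) and by YY1. The 250 bases before the RefSeq start on assembly GRCr8 were searched on both strands for GCGCANGCG (NRF-1), CCGGAAG (NRF-2), AAGGTCA (ERR) and AAGATGG (YY1). NRF-2 and YY1 letters can share their AAG, but no matches of different motifs overlapped in the windows printed. A window was available for 54 of the members. The 150 bases before the start are printed 5′ to 3′ on the strand of the gene, with matches in capitals and positions counted back from the start. Cox7a1 and Cox7a2 are the heart and the ubiquitous form of the same subunit, Sdhb and Uqcrc1 stand for complexes II and III, Cox5b for complex IV, and Atp5pf and Atp5mg for complex V. The windows are chr1:94569066-94569215 (plus strand), chr8:89601150-89601299 (minus strand), chr5:158547784-158547933 (plus strand), chr8:118468073-118468222 (plus strand), chr9:46417687-46417836 (plus strand), chr11:37375102-37375251 (minus strand) and chr8:54130408-54130557 (minus strand), in the order of the lines.
Cox7a1: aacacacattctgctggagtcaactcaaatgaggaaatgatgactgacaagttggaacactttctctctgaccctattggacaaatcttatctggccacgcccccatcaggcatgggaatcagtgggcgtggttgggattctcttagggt
Cox7a2: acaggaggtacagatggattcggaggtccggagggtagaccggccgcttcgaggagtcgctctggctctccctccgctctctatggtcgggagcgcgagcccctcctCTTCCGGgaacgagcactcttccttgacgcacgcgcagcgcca
Sdhb: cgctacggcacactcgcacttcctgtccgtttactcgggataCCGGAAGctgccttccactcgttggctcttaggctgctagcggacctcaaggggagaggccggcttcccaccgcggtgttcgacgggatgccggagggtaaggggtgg
Uqcrc1: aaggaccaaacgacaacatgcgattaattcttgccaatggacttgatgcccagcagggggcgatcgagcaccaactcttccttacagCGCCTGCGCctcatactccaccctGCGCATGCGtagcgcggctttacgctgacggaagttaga
Cox5b: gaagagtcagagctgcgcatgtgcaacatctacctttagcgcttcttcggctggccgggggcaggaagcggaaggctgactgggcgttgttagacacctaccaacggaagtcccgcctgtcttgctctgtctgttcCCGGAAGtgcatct
Atp5pf: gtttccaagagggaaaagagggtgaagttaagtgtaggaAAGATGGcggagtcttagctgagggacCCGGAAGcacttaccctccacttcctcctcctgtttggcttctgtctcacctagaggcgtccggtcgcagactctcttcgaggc
Atp5mg: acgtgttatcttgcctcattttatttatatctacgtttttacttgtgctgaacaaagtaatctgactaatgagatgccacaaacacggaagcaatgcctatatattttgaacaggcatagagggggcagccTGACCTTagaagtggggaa

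The capitals mark NRF-2 letters in Cox7a2, Sdhb, Cox5b and Atp5pf, NRF-1 letters at 2 places in Uqcrc1, YY1 letters in Atp5pf and ERR letters in Atp5mg. Of the 54 member windows, 13 (24.1%) held the NRF-2 letters, against 7.27% of all 33469 promoter windows. NRF-1 letters stood in 9 member windows (16.7%, against 5.09% of all), ERR letters in 6 (11.1%, against 3.99%) and YY1 letters in 4 (7.41%, against 4.62%). The window of Cox7a1 held none of these letters, which says only that they are not spelled there.

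In hearts of 2 months, ST against WT asks whether the virus with its transgene came with a change early on. The WT hearts had no treatment, so virus, mCherry and channel cannot be told apart in any contrast of ST with WT. No member passed an adjusted p of 0.05 in edgeR's quasi-likelihood test: 0 of 43 members tested were called, where 4.8% of all 12121 genes tested were called (2.7% higher and 2.1% lower in ST). At an unadjusted p under 0.05 there were 5 of the 43 members, against 2259 of all 12121 genes, and DESeq2 called 0 members. The median log2 fold change of the members was −0.08, against −0.00 over all genes, and 30 of 43 were below 0. It was 0.03 when libraries were scaled by their ribosomal protein genes, which moved the median of all genes to 0.11.

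All 8 tested members of complex III were below 0 at 2 months, from −0.41 to −0.01. This was not particular to complex III: 26 of 28 other mitochondrial genes were below 0 too (median −0.10). So were 44 of 66 ribosomal protein genes (median −0.09), while 36 of 48 genes with long messenger RNAs were above 0 (median 0.15). Cyc1, the cytochrome c1 of complex III, had 308 and 461 CPM in ST hearts, against 486 and 536 CPM in WT hearts, a log2 fold change of −0.41 (SE 0.16, adjusted p = 0.179). Both ST hearts lay below both WT hearts, but they differed from each other by more than the nearer of them did from WT. That order was seen for 16 of 43 members and 24.1% of all genes, and the reverse order for 5 members and 24.8%. Sdhc, a membrane anchor of complex II, had 251 and 321 CPM in ST hearts, against 340 and 371 CPM in WT hearts (log2 fold change −0.31, SE 0.14, adjusted p = 0.239). Without ST replicate 2, 8 members were called, 1 higher (Cox7a2l2) and 7 lower in ST (Atp5f1d, Atp5mc2, Cox7a2, Cox7c, Cyc1, Sdhc and Uqcrc1), calls that then rest on 1 ST heart. The 6 mitochondrially encoded subunits of complexes III to V, counted only in the 2-month table, had 0 calls and a median of 0.04.

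At 6 months the same contrast showed a small set of higher members. Of 50 members tested, 7 were called higher in ST and 0 lower (14%), fewer in share than among all 13253 genes, of which 40% were called (19.9% higher and 20.1% lower). The median of the members was 0.14, against −0.00 over all genes, and 47 of 50 were above 0. Without WT replicate 1 the median was 0.07, 32 of 50 were above 0 and 7 members were called (6 higher and 1, Atp5f1e, lower), of which 5 were among the 7 above. With scaling by the library total alone it was 0.02, and with scaling by ribosomal protein genes 0.05. Those scalings moved the median of all genes to −0.12 and −0.10, and the median of the members stayed above 0 under each of them.

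Cox7a1, the form of subunit VIIa that predominates in heart and skeletal muscle, showed the clearest difference. Its levels were 68.9, 45.5 and 56.9 CPM in ST hearts, against 24.8, 34.5 and 36.0 CPM in WT hearts. Every ST heart lay above every WT heart, and the fold change was 1.79 (log2 0.84, SE 0.16, adjusted p = 0.0015). It was called in all 6 fits that left out a library in turn, at 0.69 without WT replicate 1. At 6 months every ST heart lay above every WT heart for 22 of 50 members and 25.2% of all genes. Every ST heart lay below every WT heart for 0 members and 26.5% of all genes. The ubiquitous form Cox7a2 had 511, 600 and 549 CPM in ST hearts, against 369, 594 and 599 CPM in WT hearts. These groups overlapped, and the log2 fold change was 0.09 (SE 0.15, adjusted p = 0.668), or −0.11 without WT replicate 1 (adjusted p = 0.267).

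The other calls were spread over the complexes. In complex II, Sdhb, the iron-sulfur subunit, had 719, 618 and 698 CPM in ST hearts, against 545, 569 and 593 CPM in WT hearts (log2 fold change 0.26, SE 0.07, adjusted p = 0.0156). All 3 ST values were above all 3 WT values, and without WT replicate 1 the value was 0.22 (adjusted p = 0.0373). Sdhb held its call in 4 of the 6 fits without a library. Sdhc rose by log2 0.18 (SE 0.06, adjusted p = 0.0453) and held its call in 1 of the 6 fits without a library; without WT replicate 1 it had 0.14 (adjusted p = 0.0884). Sdha, the flavoprotein that oxidises succinate, had −0.01 (adjusted p = 0.963) and Sdhd, the other anchor, 0.05 (adjusted p = 0.54).

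Uqcrfs1, the Rieske iron-sulfur protein of complex III, had 923, 839 and 912 CPM in ST hearts, against 751, 778 and 782 CPM in WT hearts (log2 fold change 0.21, SE 0.06, adjusted p = 0.0194). Uqcrq, a small subunit beside cytochrome b, rose by log2 0.29 (SE 0.10, adjusted p = 0.0343), with 2 of 6 fits without a library calling it and 0.19 without WT replicate 1 (adjusted p = 0.0947). Cycs, cytochrome c itself, had 1459, 1425 and 1387 CPM in ST hearts, against 1141, 1270 and 1257 CPM in WT hearts (log2 fold change 0.22, SE 0.06, adjusted p = 0.0167). The groups of Uqcrfs1 and of Cycs did not overlap, as in 25.2% of all genes with ST above WT. Without WT replicate 1 their values were 0.19 and 0.17, both called. Uqcrfs1 held its call in 4 and Cycs in 5 of the 6 fits without a library. Cyc1 had a log2 fold change of 0.15 (adjusted p = 0.0896) and Uqcrc1, a core protein, 0.17 (adjusted p = 0.0536).

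In complex V 1 of 20 members was called. Atp5mc1l1, named as a copy of the c-ring gene Atp5mc1, had 1.24, 2.71 and 3.54 CPM in ST hearts, against 1.505, 0.516 and 0.936 CPM in WT hearts. The groups overlapped, the counts are low, and reads of a near-identical parent could be split between the 2 names, so the call (log2 1.37, SE 0.45, adjusted p = 0.0292, and 1.79 without WT replicate 1) is uncertain. The call of Atp5mc1l1 held in 2 of 6 fits without a library. Atp5if1, the inhibitor of ATP synthase, had 0.23 (adjusted p = 0.0852). The catalytic subunits Atp5f1a and Atp5f1b had 0.09 and 0.01.

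Other lists were read between the same 6-month hearts, where 19.9% of all genes were called higher and 20.1% lower in ST. Of 8 erythroid markers tested, 7 were higher and 0 lower in ST, and their summed level was 735 to 816 CPM in ST hearts, against 411 to 554 CPM in WT hearts. Smooth muscle and pericyte markers had 4 of 8 higher and 1 lower, at 581 to 714 CPM in ST hearts, against 627 to 678 CPM in WT hearts. Endothelial markers had 3 of 8 higher and 1 lower, at 1047 to 1170 CPM in ST hearts, against 906 to 1126 CPM in WT hearts. Fibroblast markers had 3 of 8 higher and 4 lower, and their sum was lower, at 978 to 1041 CPM in ST hearts, against 1211 to 1290.2 CPM in WT hearts. Macrophage markers had 1 of 8 in each direction (12.5%) and heart muscle markers 3 of 12 higher (25%) and 1 lower (8.33%). For both lists the shares were near or below those of all genes. None of these markers was at 0 in all libraries. Of 79 ribosomal protein genes, 71 were above 0, with 2 called higher, 0 lower and a median of 0.09. The part of these lists in the members' values was not tested.

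**Figure D1:**
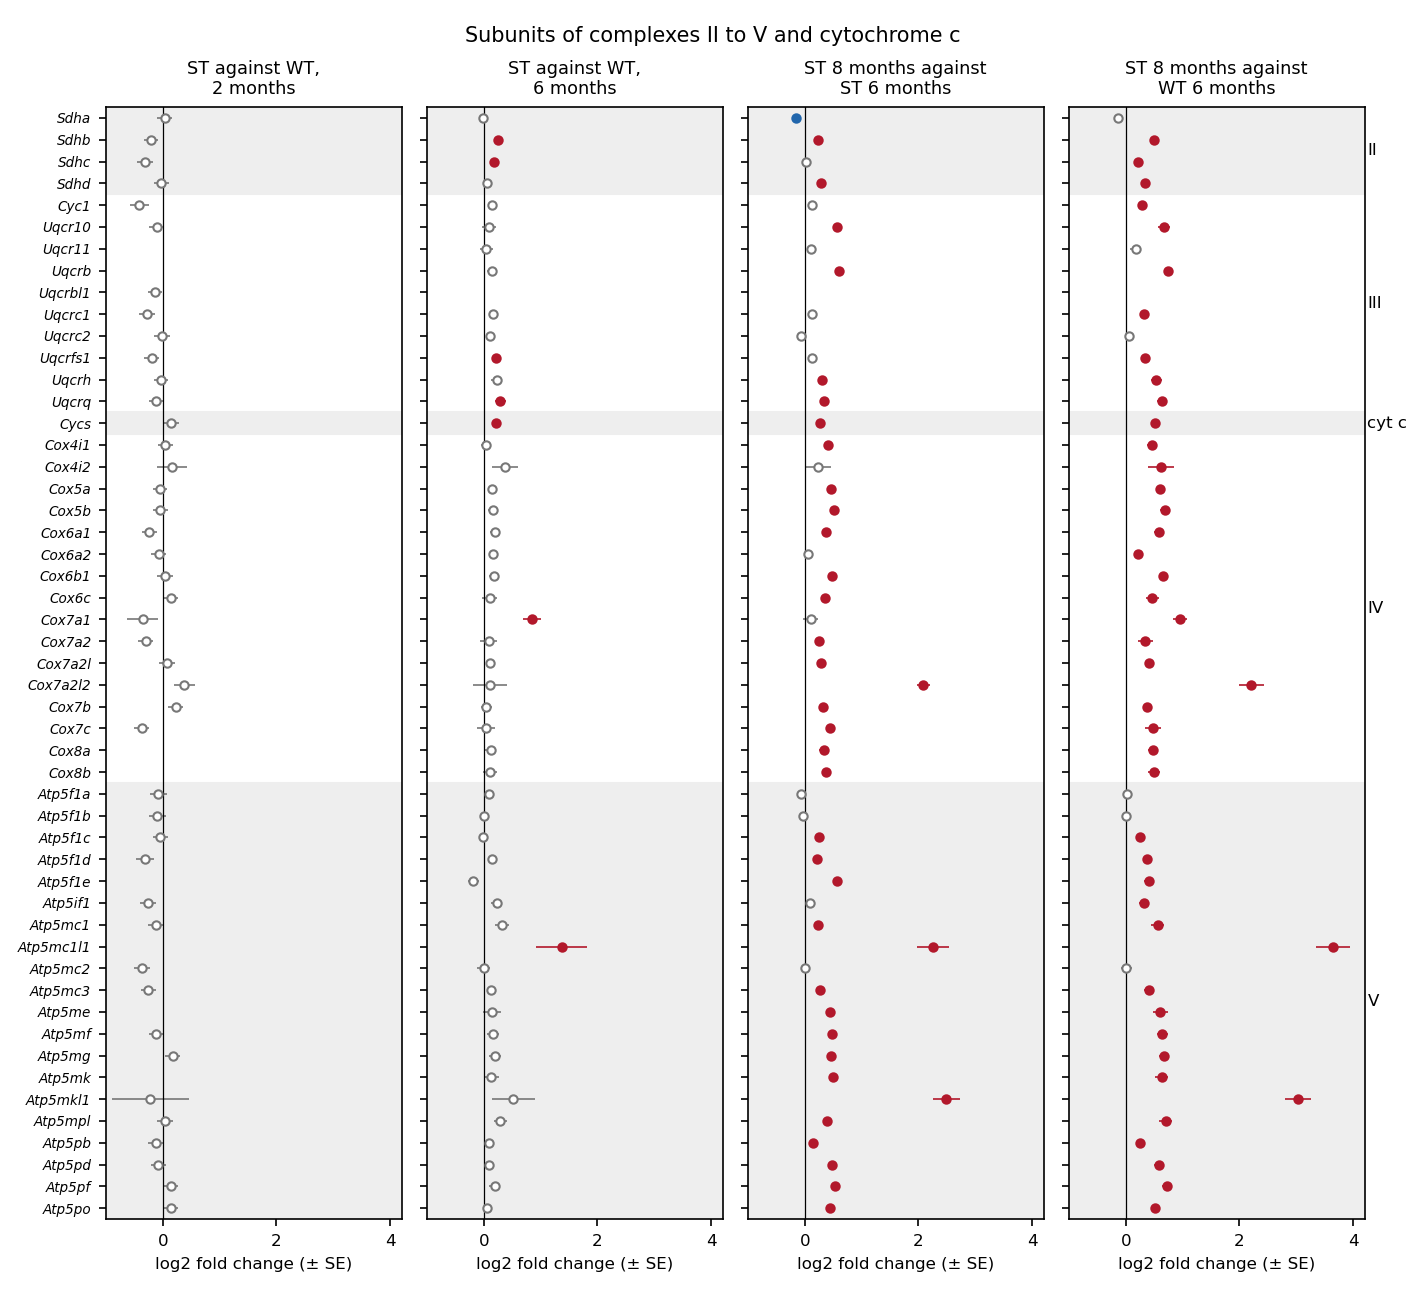
Log2 fold change with its SE (x axis) of each tested member (rows, by complex) in 4 comparisons; filled red or blue points were called higher or lower at an adjusted p under 0.05 and open grey points were not. At 2 months 0 of 43 are filled, at 6 months 7 of 50, in ST hearts of 8 against 6 months 37 of 50 and against WT hearts of 6 months 44 of 50.

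Whether the ST effect differed between 6 and 2 months was tested as an interaction over the names of both tables. Of 48 members tested, 8 had a higher ST effect at 6 months and 0 a lower one, against 22.2% of all 12658 genes called (10.2% higher and 12% lower). Complex III gave 4 of them (Uqcrbl1 among these), complex II 2, complex IV 1 (Cox7a1) and complex V 1. The median was 0.21, against −0.02 over all genes. Names near 0 at 2 months, such as Uqcr11 (−3.04) and Atp5f1e (−1.50), are in the 48 and in the median. Their single values are not read as changes. Leaving out single libraries moved the count between 1 (without ST replicate 1 of 2 months) and 12 (without ST replicate 2 of 2 months). Leaving out 6-month hearts moved it too, to 2 without ST replicate 1 and to 4 without ST replicate 3, WT replicate 1 or WT replicate 2. Without WT replicate 1 of 6 months the median was 0.13, and Cox7a1 (1.057), Sdhb (0.42), Sdhc (0.45) and Uqcrbl1 held their calls. The call for Uqcrbl1 follows a name that took 200 to 224 CPM at 2 months and at most 1.11 CPM at 6 months, and is not read as a change.

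ST hearts of 8 months against ST hearts of 6 months showed the broad change. Of 50 members, 36 were higher at 8 months (72%) and 1 was lower (2%), where 39.6% of all 12931 genes were called (19.1% higher and 20.5% lower). The median was 0.31, against 0.02 over all genes. All 16 tested members of complex IV were above 0, and 13 were called. Complex V had 16 of 20 called higher, complex III 4 of 9 and complex II 2 of 4. The 8-month and 6-month hearts stand in separate tables with the same names, so that time, table and any difference in preparation cannot be told apart.

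In complex II the subunits parted. Sdha fell by 0.15 on the log2 scale (SE 0.05, adjusted p = 0.0396), with 1295, 1339 and 1296 CPM at 8 months, against 1415, 1527 and 1403 CPM at 6 months. Its call held in 2 of 6 fits without a library. Sdhb had 789, 801 and 795 CPM at 8 months, against 719, 618 and 698 CPM at 6 months (log2 0.23, SE 0.06, adjusted p = 0.00984), and Sdhd had 726, 748 and 752 CPM, against 598, 605 and 626 CPM (log2 0.28, SE 0.05, adjusted p = 0.000947). Sdhc had a log2 fold change of 0.03 (adjusted p = 0.705).

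In complex III 4 of 5 small subunits rose, and 0 of the 4 core and catalytic ones were called, where 19.1% of all genes were called higher. That split was not seen in the calls against WT hearts of 6 months, where 17.8% of all genes were called higher. There 4 of 5 small subunits (median 0.64) and 3 of 4 core and catalytic ones (median 0.30) were called higher. Uqcrb, which lies against cytochrome b, had 737, 751 and 708 CPM at 8 months, against 489, 479 and 484 CPM at 6 months. The fold change was 1.51 (log2 0.60, SE 0.05, adjusted p = 2.35e-06) and no 8-month heart came near a 6-month one. All 8-month hearts lay above all 6-month ST hearts for 38 of 50 members and 25.9% of all genes. They lay below for 3 members and 25.1% of all genes. Uqcr10, another small subunit, had 528, 567 and 578 CPM, against 368, 371 and 390 CPM (log2 0.56, SE 0.06, adjusted p = 8.74e-06). Uqcrq rose by 0.34 and Uqcrh, the hinge protein that helps cytochrome c dock, by 0.30, while Uqcr11 had 0.12. The core proteins Uqcrc1 and Uqcrc2 had 0.13 and −0.07, Cyc1 0.13 and Uqcrfs1 0.12. Cycs rose by 0.27 (SE 0.05, adjusted p = 0.000568), with 1707, 1694 and 1773 CPM at 8 months, against 1459, 1425 and 1387 CPM at 6 months.

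In complex IV, whose nuclear subunits surround a mitochondrially encoded core, Cox5b, the zinc-binding subunit, had 984, 897 and 1003 CPM at 8 months, against 669, 665 and 680 CPM at 6 months (log2 0.52, SE 0.06, adjusted p = 1.24e-05). Cox6b1, on the outer face, rose by 0.48 and Cox4i1, the largest nuclear subunit, by 0.40 (adjusted p = 3.55e-05). Cox7a2l, which joins complexes III and IV in supercomplexes, rose by 0.28 (adjusted p = 0.00217). The 3 members without a call were Cox4i2, Cox6a2 and Cox7a1, at 0.23, 0.05 and 0.11. Cox7a2l2, named as a copy of Cox7a2l, had 35.0, 38.4 and 42.9 CPM at 8 months, against 8.19, 9.85 and 9.17 CPM at 6 months (log2 2.09, adjusted p = 5.13e-08). It may share reads with its parent and is uncertain as a separate gene.

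In complex V all 5 small membrane subunits (Atp5me, Atp5mf, Atp5mg, Atp5mk and Atp5mpl) were higher, from 0.40 to 0.49. Atp5mg, subunit g, had 947, 935 and 945 CPM at 8 months, against 664, 700 and 684 CPM at 6 months (SE 0.05, adjusted p = 1.49e-05). All 4 subunits of the peripheral stalk were higher too, from 0.15 to 0.53. The lowest of them, Atp5pb (adjusted p = 0.0221), held its call in 2 of 6 fits without a library. Atp5pf, the coupling factor of that stalk, had 780, 800 and 804 CPM at 8 months, against 557, 530 and 560 CPM at 6 months (log2 0.53, SE 0.05, adjusted p = 5.57e-06). The central stalk (Atp5f1c, Atp5f1d and Atp5f1e) gave 0.26, 0.21 and 0.57, all called, with Atp5f1d called in 4 of 6 fits without a library. The catalytic head did not share this: Atp5f1a and Atp5f1b had −0.07 and −0.03 (adjusted p = 0.207 and 0.635). Of the 3 genes for the c ring, Atp5mc1 and Atp5mc3 were called, at 0.23 and 0.26, and Atp5mc2 had −0.00. Atp5if1 had 0.09 (adjusted p = 0.348). The copies Atp5mkl1 and Atp5mc1l1 had the largest values of complex V, 2.49 and 2.26, at 9.42 to 15.1 CPM at 8 months, against 1.24 to 3.54 CPM at 6 months, with the same uncertainty about shared reads.

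**Figure D2:**
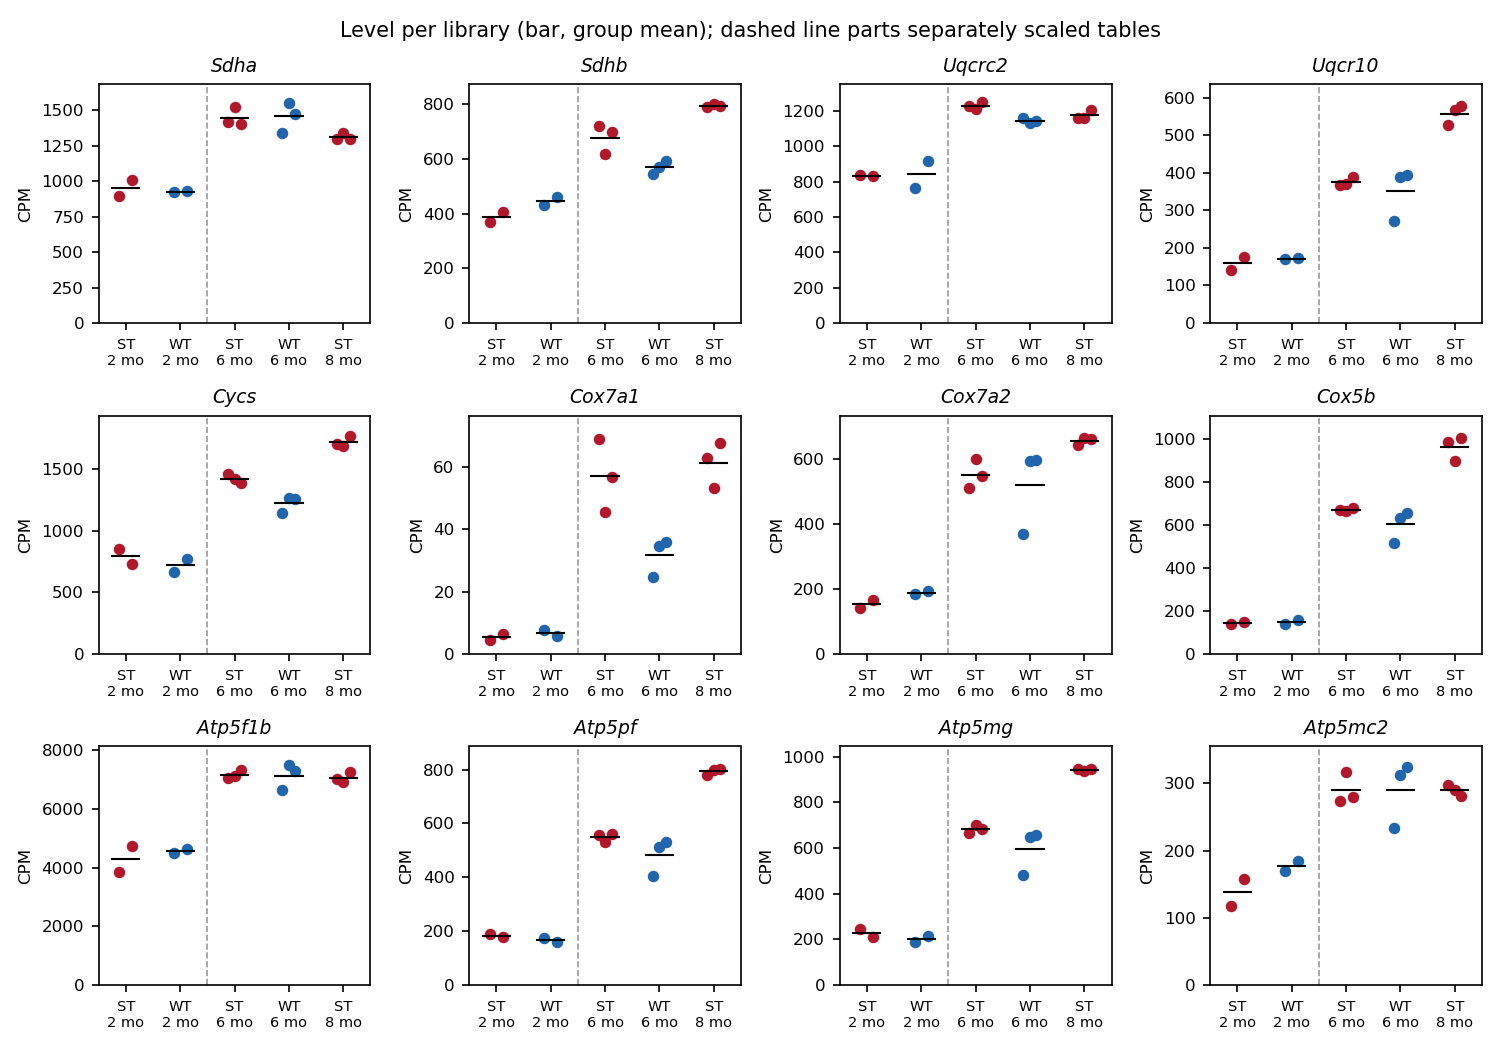
Level in CPM (y axis, from 0) of 12 members in each library of each group (x axis); points are hearts, red ST and blue WT, and bars are group means. Uqcr10, Cox5b, Atp5pf and Atp5mg of 8 months stand above all hearts of 6 months, Atp5f1b and Atp5mc2 of 8 months lie within the range of 6 months, and Cox7a1 is higher in ST than in WT at 6 months; the 2-month table left of the dashed line was scaled apart.

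Summed over the complex, complex IV reached 9418.9 to 9678 CPM in ST hearts of 8 months, against 7178 to 7660 CPM in ST hearts of 6 months and 5695 to 7529 CPM in WT hearts of 6 months. Complex V had 23311 to 23986 CPM at 8 months, against 21325 to 21693 CPM in ST and 18888 to 21305 CPM in WT at 6 months. For complex III the sums were 6399 to 6818 CPM, against 5543 to 5929.7 CPM in ST and 4881 to 5359.8 CPM in WT. Complex II moved least, at 3291 to 3383 CPM, against 3215 to 3240 CPM in ST and 2875 to 3175 CPM in WT. The 8-month hearts were above all 6-month hearts in each of these sums. In bulk samples a smaller share of other cells and more RNA per heart muscle cell cannot be told apart.

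**Figure D3:**
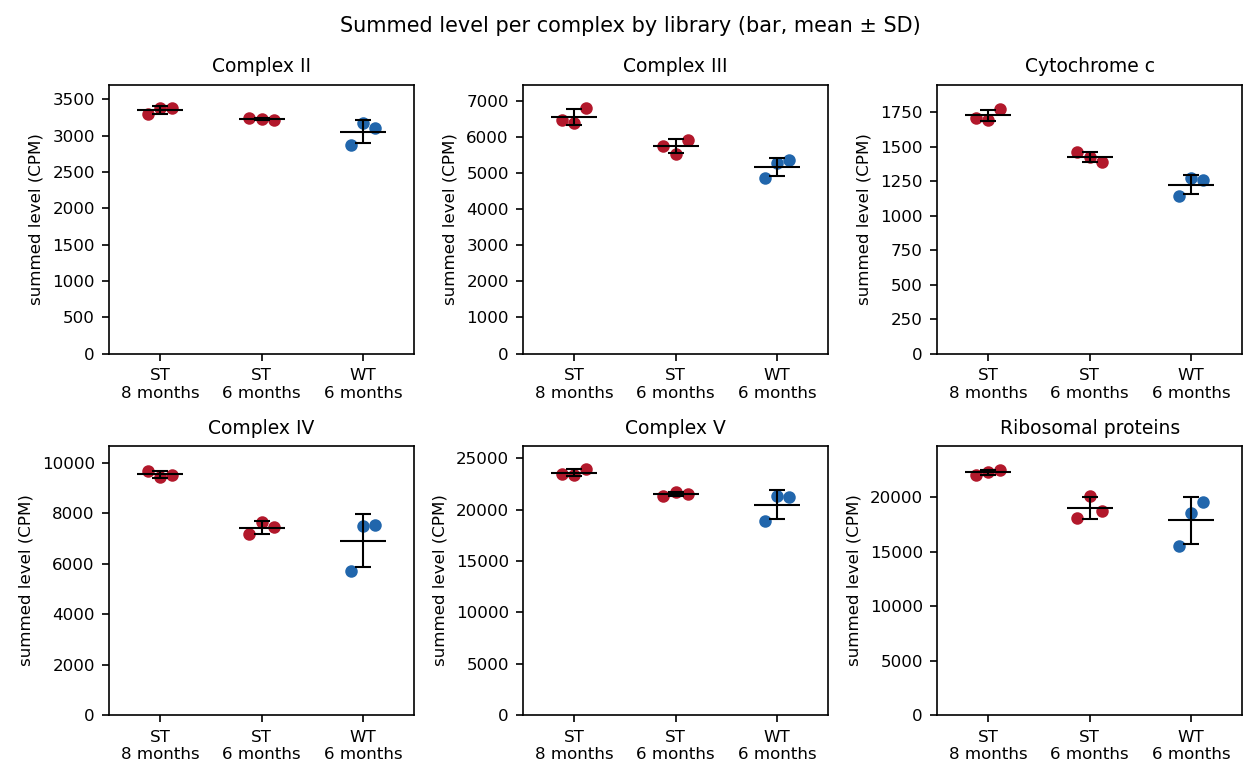
Summed level in CPM (y axis, from 0) of each complex, of cytochrome c and of the ribosomal protein genes in each heart (points, red ST and blue WT), with the mean ± SD (bars, n = 3 hearts a group). Hearts of 8 months are highest in all 6 panels, and WT replicate 1 of 6 months, the first WT point, is lowest in each.

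Against WT hearts of 6 months, ST hearts of 8 months had 44 of 50 members higher (88%) and 0 lower, where 33.9% of all 13095 genes were called (17.8% higher and 16.1% lower). The median was 0.49, against −0.01 over all genes, and 0.38 without WT replicate 1, when 43 members were higher and 1 (Sdha) lower. Both contrasts of the 8-month hearts use the same 3 libraries. This one changes the virus with its transgene and the time at once, which cannot be told apart. All 16 members of complex IV were higher, though Cox7a2 (adjusted p = 0.0474) held its call in 3 of 6 fits without a library. The 6 members without a call were Sdha, Uqcr11, Uqcrc2, Atp5f1a, Atp5f1b and Atp5mc2, with values from −0.14 to 0.17.

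Cox7a1 had 62.9, 53.3 and 67.5 CPM in ST hearts of 8 months, against 24.8, 34.5 and 36.0 CPM in WT hearts of 6 months (log2 0.96, SE 0.13, adjusted p = 2.43e-05). Uqcrb had a fold change of 1.68 (log2 0.75, SE 0.07, adjusted p = 9.28e-07) and Atp5pf of 1.66 (log2 0.73, SE 0.09, adjusted p = 9.63e-06). Without WT replicate 1 the log2 values were 0.80 for Cox7a1, 0.67 for Uqcrb and 0.61 for Atp5pf, all called. Sdhb had 0.49 (adjusted p = 1.4e-05) and Cycs 0.51 (adjusted p = 1.21e-05). Atp5if1, which had not passed at 6 months, was higher here by 0.33 (adjusted p = 0.00721), with 152, 145 and 140 CPM in ST hearts of 8 months, against 101, 128 and 123 CPM in WT hearts of 6 months. Cox4i2, the form of subunit IV known from lung and induced in low oxygen, was called at 0.62 (adjusted p = 0.0434) from 4.51 to 9.96 CPM over both groups, and 2 of 6 fits without a library called it. Without WT replicate 1 Atp5if1 had 0.22 (adjusted p = 0.017) and Cox4i2 0.49 (adjusted p = 0.114).

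Other short messenger RNAs moved with the members at 8 months. Among all genes, 19.1% were called higher and 20.5% lower in ST hearts of 8 against 6 months, and 17.8% and 16.1% against WT hearts of 6 months. Of 79 ribosomal protein genes tested, 54 were higher (68.4%) and 2 lower in ST hearts of 8 against 6 months, with a median of 0.24. Against WT hearts of 6 months 60 were higher (75.9%) and 0 lower, with a median of 0.34. Of 48 genes with long messenger RNAs, 26 were lower (54.2%) and 2 higher at 8 against 6 months, with a median of −0.34. Against WT hearts of 6 months 33 were lower (68.8%) and 3 higher. When libraries were scaled by the ribosomal protein genes, which moved the median of all genes to −0.21, the members at 8 against 6 months had 18 higher and 7 lower calls and a median of 0.08. The lower ones included Sdha, Sdhc, Uqcrc2, Cox6a2, Atp5f1a, Atp5f1b and Atp5mc2. Against WT hearts of 6 months that scaling gave 16 higher and 5 lower calls, with a median of 0.16 and the median of all genes at −0.35. The share of all genes called under that scaling is not given here, so these counts are not set against it. The part of RNA quality or of messenger length in the results of the 8-month hearts was not tested.

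Markers of other cell types were read at 8 months as well. Of all genes, 19.1% were called higher and 20.5% lower against ST hearts of 6 months. Against WT hearts of 6 months the shares were 17.8% and 16.1%. Of 8 macrophage markers, 4 were lower and 0 higher against ST hearts of 6 months, and their summed level was 106 to 120 CPM at 8 months, against 134 to 187 CPM in ST and 141 to 183 CPM in WT hearts of 6 months, with none of the 8 at 0. Endothelial markers had 3 of 8 higher and 1 lower against ST hearts and 5 higher and 0 lower against WT hearts of 6 months (median 0.33), at 1258 to 1331 CPM at 8 months, against 1047 to 1170 CPM in ST and 906 to 1126 CPM in WT hearts of 6 months. Fibroblast markers had 4 of 8 higher and 3 lower against ST hearts and 1 higher and 3 lower against WT hearts, at 1156 to 1240.4 CPM at 8 months, against 978 to 1041 CPM in ST and 1211 to 1290.2 CPM in WT hearts of 6 months. Erythroid markers had 0 of 8 called against ST hearts and 3 higher against WT hearts, and smooth muscle and pericyte markers had 0 of 8 called against ST hearts and 3 of 7 higher and 1 lower against WT hearts. The summed heart muscle markers were 138030 to 139410 CPM at 8 months, against 122830 to 129940 CPM in ST and 128970 to 138920 CPM in WT hearts of 6 months. Of these 12 markers 6 were higher and 2 lower against ST hearts of 6 months, and 6 higher and 3 lower against WT hearts. The part of these markers in the members' change was not tested.

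**Figure D4:**
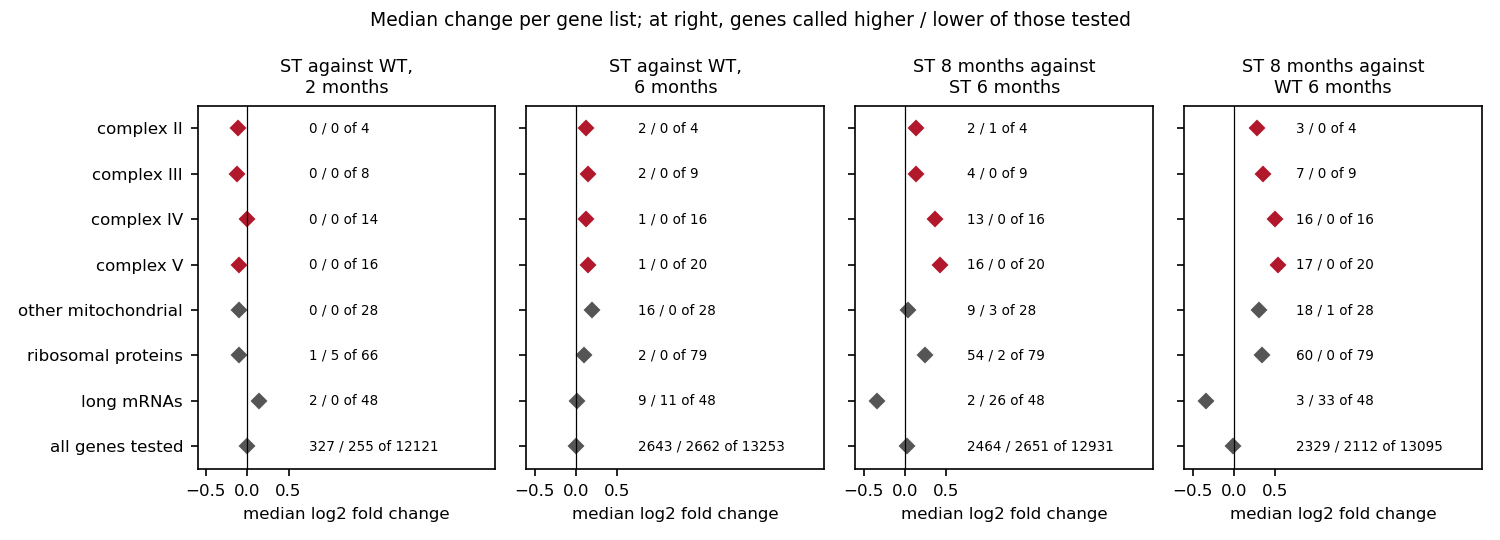
Median log2 fold change (x axis) of each complex (red) and of other gene lists (grey) in 4 comparisons, with the number of genes called higher / lower of those tested printed beside each point. In the comparisons of 8-month hearts, complexes IV and V have medians of 0.36 to 0.54, ribosomal protein genes 0.24 and 0.34, and long messenger RNAs −0.34 and −0.33; the medians of complexes II and III are smaller, at 0.13 to 0.35.

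Isoform choice within complex IV was read as the difference of log2 counts between the paired genes in each heart. It was tested by an exact two-sided permutation test over hearts, with Benjamini-Hochberg adjustment over 15 tests. The difference is not corrected for transcript length and is read only between hearts. With 3 hearts against 3 the smallest p is 0.1, and with 2 against 2 it is 0.333, so that no test could pass. Cox7a1 minus Cox7a2 was −3.29 ± 0.41 in ST hearts, against −4.02 ± 0.11 in WT hearts at 6 months (SD, n = 3 each; exact p = 0.1, adjusted p = 0.375). All 3 ST values were above all 3 WT values. At 2 months it was −4.83 ± 0.21 in ST hearts, against −4.80 ± 0.34 in WT hearts (SD, n = 2 each; exact p = 1). Cox6a2, the heart form of subunit VIa, minus Cox6a1 was 2.70 ± 0.05 in ST hearts of 8 months, against 3.02 ± 0.04 in ST hearts of 6 months (SD, n = 3 each; exact p = 0.1), without overlap. Cox8b minus Cox8a differed by 0.04 between these groups and by −0.00 between ST and WT at 6 months, less than the spread between hearts. Cox4i2 minus Cox4i1 had a difference of 0.31 between ST and WT at 6 months (exact p = 0.3).

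Among genes that help build these complexes, those of complex IV were called higher in ST hearts of 8 against 6 months in a larger share than all genes. Of 27 assembly and associated genes of complex IV, 14 were higher (51.9%, against 19.1% of all genes) and 2 lower, among them Cox17, a copper chaperone (log2 0.62), and Higd1a (0.52). Of 14 for complexes II and III, 3 were higher (21.4%, near the share of all genes) and 1 lower, with Uqcc3 at 0.64 and Sdhaf1, which helps insert iron-sulfur clusters into Sdhb, at 0.37. Of 6 for complex V, 1 was higher (Fmc1, 0.37), also near that share. Against WT hearts of 6 months, 16 of 27, 11 of 14 and 4 of 6 were higher, where 17.8% of all genes were. Of 28 other mitochondrial genes, 9 were higher and 3 lower at 8 against 6 months, with a median of 0.03. At 6 months ST against WT had 16 of those 28 higher (19.9% of all genes were) and 0 lower, led by the adenine nucleotide carrier Slc25a5 (0.67) and the chaperonin Hspe1 (0.62).

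Ppargc1a, the coactivator PGC-1 alpha, was higher in ST than in WT at 2 months (log2 1.31, SE 0.13, adjusted p = 1.09e-05) and at 6 months (0.83, SE 0.11), and lower in ST hearts of 8 against 6 months (−0.60, SE 0.11). Its relative Pprc1 and the muscle regulator Perm1 were higher at 6 months (0.91 and 0.94) and lower at 8 against 6 months (−0.83 and −0.61). Esrra, the receptor ERR alpha, was lower at 8 against 6 months (−0.52), and Esrrg was lower in ST than in WT at 6 months (−0.53). Of 17 regulators tested, 5 were higher and 2 lower in ST at 6 months (median 0.04), where 19.9% and 20.1% of all genes were. In ST hearts of 8 against 6 months 1 was higher and 5 were lower (29.4%), where 20.5% of all genes were lower. Against WT hearts of 6 months 3 were higher and 3 lower, where 17.8% and 16.1% of all genes were. There Perm1 had 0.35 and Esrrg −0.60. The contrasts of 6 months and of 8 against 6 months share the ST hearts of 6 months, and the last shares hearts with both. Their values stand side by side and are not independent.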

How the data were processed

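Values are expected counts as deposited in 3 tables, 1 per time point, not scaled between samples. No tool is named in the sources used here; per the submitters' processing notes the builds are GRCm38 and mm10, mouse builds that the rat gene names contradict. After rounding to whole counts, every comparison was fitted on its own groups with filterByExpr, TMM scaling and the quasi-likelihood F test of edgeR 4.0.16 in R 4.3.3 on all genes, with Benjamini-Hochberg adjustment and a threshold of 0.05. The SE was computed as |log2 fold change| over √F. DESeq2 1.42.0, other scalings and filters, a block for the replicate number and leaving out each library were alternatives. Isoform differences used a prior of 0.5 counts. Named were members past the threshold, up to 24 per comparison by smallest p, and a set of fixed genes; other members are named after their values were seen, to describe their complex. The procedure was tested on simulated data. Members and lists were chosen with earlier results of these data known. RefSeq sequences of GRCr8 were matched by symbol. Of the members at 6 and 8 months 18 did not pass the filter, 11 of them with 0 counts throughout and the rest at up to 2.33 CPM; at 2 months 14 did not, 7 of them at 0. P-values measure the spread between these hearts.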

Additional observations from a re-analysis of the deposited data

Results flagged for a closer look

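The difference between the ST effect at 6 months and that at 2 months passed an adjusted p of 0.05 (edgeR's quasi-likelihood test) in 8 members, all with the higher effect at 6 months. On the log2 scale it was 1.20 for Cox7a1 (SE 0.35, adjusted p = 0.0204), 0.55 for Cyc1 (SE 0.17), 0.45 for Sdhb (SE 0.13), 0.48 for Sdhc (SE 0.14), 0.43 for Uqcrc1 (SE 0.14), 0.40 for Uqcrfs1 (SE 0.13) and 0.37 for Atp5mc3 (SE 0.12). For Uqcrbl1 it was 2.42 (SE 0.67); that name held 200 to 224 CPM at 2 months, where Uqcrb was near 0, and at most 1.11 CPM at 6 months. Cox7a1 was called in 8 of the 10 fits that left out a library, Sdhb and Sdhc in 7, Cyc1, Uqcrfs1 and Atp5mc3 in 3 and Uqcrc1 in 2.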

How the results depend on the processing

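Of the values of single members under the alternatives, 1565 of 1737 kept their side of the threshold and did not turn sign by more than their SE, 126 lost their call, 25 gained one, 14 without a call turned sign by more than their SE and 7 turned sign with a call in either fit. These values cover, in each comparison, up to 24 called members by smallest p and the fixed genes. Weaker calls are left out where more were called, such as Atp5pb in ST hearts of 8 against 6 months. The isoform tests could not pass and are not counted. All 7 turned under scaling by ribosomal protein genes, which was added after seeing the data. Against ST hearts of 6 months, 8-month hearts then had −0.0103 for Sdhb, −0.20 for Sdhc and −0.18 for Cox6a2. Against WT hearts of 6 months they had −0.12 for Sdhc, −0.0582 for Cyc1, −0.0043 for Atp5if1 and −0.12 for Cox6a2. Members outside the tally are not in this list. Among them, Atp5f1a, Atp5mc2 and Uqcrc2 (0.03, 0.01 and 0.05 in the main fit) gained calls against WT hearts under that scaling. That scaling gave 2 members called at 6 months, 2 in the test between 6 and 2 months and 21 in 8-month ST against 6-month WT hearts, and it moved the median of all genes by as much as −0.35. Scaling by library total gave 3 at 6 months and 4 between 6 and 2 months, and no filter gave 1 at 2 months, 13 at 6 months and 13 between them. Leaving out single libraries gave 0 to 8 members at 2 months, 2 to 11 at 6 months, 34 to 36 in ST hearts of 8 against 6 months, 40 to 44 against WT hearts of 6 months, and 1 to 12 between 6 and 2 months. The 2 at 6 months came without ST replicate 1 and without ST replicate 3, and the 11 without ST replicate 2. Between 6 and 2 months the count was 1 without ST replicate 1 of 2 months, 2 without ST replicate 1, 4 without ST replicate 3 and without WT replicates 1 and 2 of 6 months, and 4 and 3 without WT replicates 1 and 2 of 2 months. The cause was not tested. Counts under the other alternatives were within 1.5 times. The replicate numbers did not pair the hearts: same-numbered hearts deviated together with r = 0.07 at 2 months, 0.00 to 0.11 at 6 months, 0.04 to 0.18 between ST hearts of 8 and 6 months and 0.03 to 0.04 between ST hearts of 8 and WT hearts of 6 months. With the replicate block, 0, 10, 38, 44 and 12 members were called in the order above. The shallow libraries of 8 months, and 2 hearts a group at 2 months, limit what could be detected.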
